A study of Homo sapiens with 12 samples.

Results

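C12orf66, now named KICS2, and TSC1 code for proteins that hold back the growth kinase complex mTORC1. The measurements show what happened to human leukemia cells in which the transcription of either gene was repressed. Every construct that carried a sgRNA against C12orf66 or TSC1, in the first or the second position, was taken. These are 2 of the 543 genes in the library, and their 4 sgRNAs were on 9112 of 1301881 constructs, or 0.700%. TSC2, the partner of TSC1, had 0 sgRNAs in the library.

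mTORC1 sits on the surface of the lysosome and promotes the synthesis of protein, nucleotides and lipids when amino acids and growth factors are at hand. KICSTOR, the complex to which C12orf66 belongs, holds the GATOR1 complex at the lysosome, where GATOR1 switches off the Rag GTPases that recruit mTORC1 when amino acids run low. TSC1 is the scaffold of the TSC complex, in which TSC2 switches off RHEB, the GTPase that activates mTORC1. C12orf66 thus lies on the amino acid branch and TSC1 on the growth factor branch. The cells studied carry the BCR-ABL1 fusion kinase, which drives the PI3K and RAS pathways.

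K562, a chronic myelogenous leukemia line, carried the machinery for CRISPR interference (CRISPRi), in which a sgRNA leads a repressor to a promoter, and a lentiviral library with a pair of sgRNAs on each construct. Screens were run in 2022 and in 2023 with 2 replicate cultures each. Each culture was sampled at T0, 9 days after transduction, then divided into an arm with the vehicle DMSO, called reference in the labels, and an arm with niraparib, an inhibitor of PARP1 and PARP2. In 2022 the drug was given at 2 µM for 3 days with harvest on day 18, and in 2023 at 2 µM, then 3 µM, for 4 days in all with harvest on day 19. All 6 groups, of 2 libraries each, shared the line and the library and differ by year and arm. Neither the knockdown nor the activity of mTORC1 was measured, and change before T0 is not in the values.

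CRISPRi acts at the promoter, so the sequence just before the start of each gene is shown. The library's names give no genome build, so the sgRNAs were not placed in these windows. The RefSeq table of GRCh38.p14 matched 2 of 2 genes, both on the minus strand. The windows are chr12:64222297-64222546 for KICS2 and chr9:132944617-132944866 for TSC1, each the 250 bases before the annotated start. Capitals mark matches, on either strand, to CCGGAAG, the core of ETS factor sites, CACGTG, the E-box, and GGGCGG, the GC box.
KICS2 promoter: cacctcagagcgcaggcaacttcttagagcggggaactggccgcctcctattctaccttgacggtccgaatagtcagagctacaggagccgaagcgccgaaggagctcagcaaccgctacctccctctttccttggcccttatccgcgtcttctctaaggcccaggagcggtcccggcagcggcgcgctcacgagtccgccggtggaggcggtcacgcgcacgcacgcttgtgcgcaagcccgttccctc
TSC1 promoter: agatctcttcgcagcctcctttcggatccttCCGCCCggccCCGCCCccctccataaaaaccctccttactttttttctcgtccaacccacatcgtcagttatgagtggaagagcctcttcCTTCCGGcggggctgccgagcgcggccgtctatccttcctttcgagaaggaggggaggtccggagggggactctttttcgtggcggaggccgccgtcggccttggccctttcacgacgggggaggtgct
The TSC1 window held 1 match to CCGGAAG and 2 to GGGCGG, all as the reverse complement, and the KICS2 window held no match to these letters. Over 35116 RefSeq promoter windows of this length, 8.52% held CCGGAAG, 6.34% held CACGTG and 42.6% held GGGCGG. The windows were 64.4% G or C for KICS2 and 62.0% for TSC1. The library's names place the sgRNAs of C12orf66 26 bases apart and those of TSC1 10 bases apart, so the sgRNAs of a gene share nearly one site. GFI1B, a transcriptional repressor of blood cells, starts 915 bases upstream of the TSC1 start used here. The annotated TSC1 gene reaches further upstream, to chr9:132945378, so the TSC1 window lies inside it. The noncoding LOC124902952 starts 53 bases from the KICS2 start. Whether the sgRNAs acted on either neighbour was not tested.

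The 12 libraries held 182552286 to 460723933 reads, and constructs with a sgRNA of C12orf66 or TSC1 had a median of 257 to 718.5 reads per library. For the effect of one gene, reads were summed over the 220 constructs that paired its sgRNAs with 55 non-targeting sgRNAs. These sums were 57754 to 331641 reads for C12orf66 and 71841 to 279429 for TSC1. Because the cassettes were amplified without molecular identifiers, reads do not count independent molecules. The p-values below measure the spread between replicate cultures of one cell line.

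The first comparison asks how repression of each gene alone changed growth without drug, as the vehicle arm over T0, relative to constructs with 2 non-targeting sgRNAs. C12orf66 gave the highest growth of the 543 genes, and TSC1 ranked 8. Per 100 reads of constructs with 2 non-targeting sgRNAs, C12orf66 had 9.39, 9.57, 9.34 and 9.46 reads in the T0 libraries of 2022 cultures 1 and 2 and 2023 cultures 1 and 2, in this order throughout, and 14.6, 15.1, 16.8 and 16.9 in the vehicle arm. TSC1 had 11.7, 11.5, 11.6 and 11.7 at T0 and 12.3, 12.5, 13.0 and 13.1 in the vehicle arm. For both genes all 4 vehicle values lay above all 4 T0 values.

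On the log2 scale C12orf66 rose by 0.64, 0.66, 0.85 and 0.84, a mean of 0.75 ± 0.11 (SD, n = 4) and a 1.68-fold increase (edgeR, adjusted p = 4.67e-10). TSC1 rose by 0.078, 0.12, 0.17 and 0.16, a mean of 0.13 ± 0.041 and 1.09-fold (edgeR, adjusted p = 3.89e-06). The lowest TSC1 culture was close to the top of the 55 non-targeting sgRNAs, whose means over cultures ran from -0.064 to 0.077. Of all genes, 85.3% were called in growth, 4.24% as higher and 81% as lower. These signs are relative to non-targeting constructs. With scaling by trimmed mean of M-values (TMM), which centres on all genes, the median of all genes moved up by 0.45 and 250 genes were called higher and 259 lower, in place of 23 and 440. C12orf66 and TSC1 then stood at 1.20 and 0.58, still at ranks 1 and 8.

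C12orf66 stood above TSC1 by 0.56, 0.54, 0.69 and 0.68 in the cultures, or 0.62 ± 0.075 (SD, n = 4), a gap larger than its spread. Both rose more in 2023. C12orf66 was 0.19 higher in 2023 than in 2022 (edgeR, adjusted p = 0.000606) and TSC1 0.065 higher (adjusted p = 0.0211), in a contrast in which 31.1% of genes were called. Harvest day and year changed together, and their parts in this difference cannot be told apart.

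Each of the 4 sgRNAs gave growth above 0 in all 4 cultures. The first C12orf66 sgRNA rose by 0.64 ± 0.064 and the second by 0.78 ± 0.13 (SD, n = 4; edgeR, adjusted p = 4.66e-09 and 5.90e-10 over 1141 sgRNAs). The first sgRNA was scarcer, with 19170 reads at T0 in 2022 culture 1 against 66972 for the second. For TSC1 the first sgRNA rose by 0.098 ± 0.033 and the second by 0.16 ± 0.050 (edgeR, adjusted p = 7.05e-05 and 1.55e-06). By place in the construct, the second C12orf66 sgRNA stood at 0.78 as first and 0.77 as second, and the second TSC1 sgRNA at 0.15 and 0.17.

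The second comparison asks what niraparib did to these cells, as the drug arm over the vehicle arm of the same culture. Both genes fell. Per 100 reads of constructs with 2 non-targeting sgRNAs, C12orf66 had 11.0, 11.2, 12.2 and 12.5 reads under niraparib, between its T0 and vehicle levels in every culture. Its response was -0.41, -0.44, -0.46 and -0.44, a mean of -0.44 ± 0.021 (SD, n = 4; edgeR, adjusted p = 1.53e-07) at rank 484 of 543 from the highest. TSC1 had 11.65, 11.62, 11.97 and 12.09 reads, and its response was -0.082, -0.11, -0.12 and -0.11, a mean of -0.11 ± 0.017 (edgeR, adjusted p = 2.01e-05) at rank 394. The share of genes called was 79.9%, with 44.2% higher and 35.7% lower, and the non-targeting sgRNAs ran from -0.086 to 0.050.

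C12orf66 minus TSC1 was -0.33 ± 0.0046 (SD, n = 4) in response, with the cultures nearly equal before the scaling given below. The 2023 minus 2022 difference was -0.028 for C12orf66 and did not pass (edgeR, adjusted p = 0.321), in a contrast that called 0.368% of genes. The authors' deposited phenotype tables divide growth by a constant of 7.19 to 8.04 in the vehicle arm and of 4.98 to 5.4 in the drug arm, whose meaning the sources used here do not give. With both arms divided by these constants and put back on the vehicle scale, the response was -0.285 ± 0.062 for C12orf66 and -0.093 ± 0.0098 for TSC1. By culture C12orf66 stood at -0.33, -0.34, -0.27 and -0.20, and TSC1 at -0.083, -0.10, -0.10 and -0.085. C12orf66 was thus less negative in both 2023 cultures, a difference not tested on that scale. The median of all genes moved to -0.20 on that scale, with 44 genes called higher and 319 lower by limma, in place of 240 and 194. Both genes stayed below 0, C12orf66 at rank 317 and below the median gene, TSC1 at rank 211 and above it.

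Over T0, cells with C12orf66 repressed still rose under niraparib, by 0.23, 0.22, 0.39 and 0.40, a mean of 0.31 ± 0.096 (SD, n = 4; edgeR, adjusted p = 1.71e-08). Of the 543 genes, PARP1, the main target of niraparib, ranked above it, at 1.38. In this measure 87.7% of genes were called, 5.52% as higher and 82.1% as lower. TSC1 stood at -0.0041, 0.012, 0.043 and 0.047, a mean of 0.024 ± 0.025 (edgeR, adjusted p = 0.0225). All 4 values lay inside the range of the 55 non-targeting sgRNAs, -0.040 to 0.049, of which 2 were called. Without any one of the 4 cultures TSC1 did not pass, at 0.020 to 0.028, nor did its second sgRNA alone, at 0.014. C12orf66 was 0.17 higher in 2023 (edgeR, adjusted p = 0.00101, with 30.4% of genes called).

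Averaged over constructs with a non-targeting sgRNA, the authors' deposited tables gave C12orf66 growth scores of 0.0834, 0.0817, 0.0975 and 0.0977 per unit of the constant. For TSC1 the authors' deposited tables gave 0.0127, 0.0161, 0.0203 and 0.0208. The drug response scores in the authors' deposited tables were -0.19, -0.166, -0.161 and -0.139 for C12orf66 and -0.0442, -0.0466, -0.0436 and -0.0367 for TSC1. These scores had a constant of their own, at 1.87, 2.37, 2.64 and 3.00 in the 4 cultures. Their trend over cultures is therefore not that of the count-based response. The signs are those of the count-based values in all 4 cultures. Both rest on the same counts and the constants are above 0, so the signs had little room to differ. The deposited tables held 203 of the 220 C12orf66 constructs in 2022 and 187 in 2023, and 220 of TSC1.

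**Figure D1:**
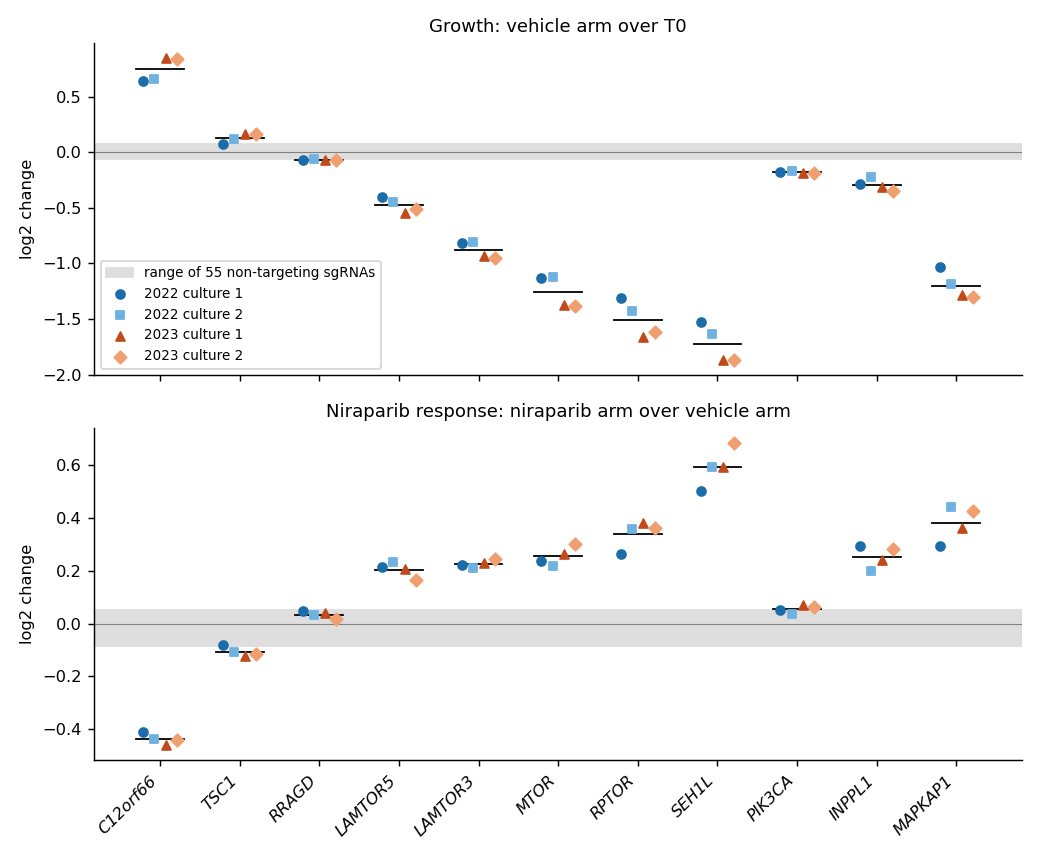
Log2 change of each gene alone in the 4 cultures, growth above (vehicle arm over T0) and niraparib response below (niraparib arm over vehicle arm), with the mean of 4 as a black line and the range of 55 non-targeting sgRNAs in grey. Of the genes shown, C12orf66 stands highest in growth at 0.75 and lowest in response at -0.44.

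The 5 measured genes of the mTORC1 core and its Rag and Ragulator recruiting machinery fell in growth, as did 81% of all genes, with a median of -0.88 against -0.46 over all genes, although RRAGD turned to 0.39 under TMM scaling. RPTOR, the substrate-binding subunit, fell by 1.51 ± 0.17 and MTOR, the kinase, by 1.25 ± 0.14 (SD, n = 4; edgeR). The Ragulator subunits LAMTOR3 and LAMTOR5 fell by 0.88 ± 0.079 and 0.48 ± 0.064. RRAGD, a Rag GTPase, fell by 0.068 ± 0.0060, close to the lowest non-targeting sgRNA at -0.064.

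SEH1L, a subunit of GATOR2, the complex that restrains GATOR1, and also a nucleoporin, fell by 1.73 ± 0.17. MAPKAP1, a subunit of the related complex mTORC2, fell by 1.20 ± 0.12. PIK3CA, a catalytic subunit of PI3K, and INPPL1, a lipid phosphatase, fell by 0.18 ± 0.012 and 0.29 ± 0.052, and both turned above 0 under TMM scaling, to 0.27 and 0.16. In response, all 5 core and recruiting genes rose, against 44.2% of all genes. The lowest of the 5 stood at 0.035, inside the non-targeting range of -0.086 to 0.050. MTOR stood at 0.26, RPTOR at 0.34 and LAMTOR3 at 0.23, but these 3 went to -0.22, -0.22 and -0.084 on the scale of the constants. SEH1L rose by 0.59 ± 0.074.

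Each gene was also paired with 542 partner genes, over 8 constructs per pair. The double phenotype is the mean log2 change of those constructs over T0. On this scale, a mean over constructs rather than a sum of reads, C12orf66 alone stood at 0.69 and TSC1 at 0.13. In the vehicle arm the double with C12orf66 lay above the partner alone for 540 of 542 partners, by a median of 0.64. The change ran from -0.066 with SFXN1, the mitochondrial serine carrier, to 1.28 with MAPKAP1. With TSC1 the double lay above the partner for 499 of 542, by a median of 0.11 and at most by 0.50, with SEH1L. Under niraparib the median was 0.29 for C12orf66 (518 of 542 above) and 0.029 for TSC1 (365 of 542).

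**Figure D2:**
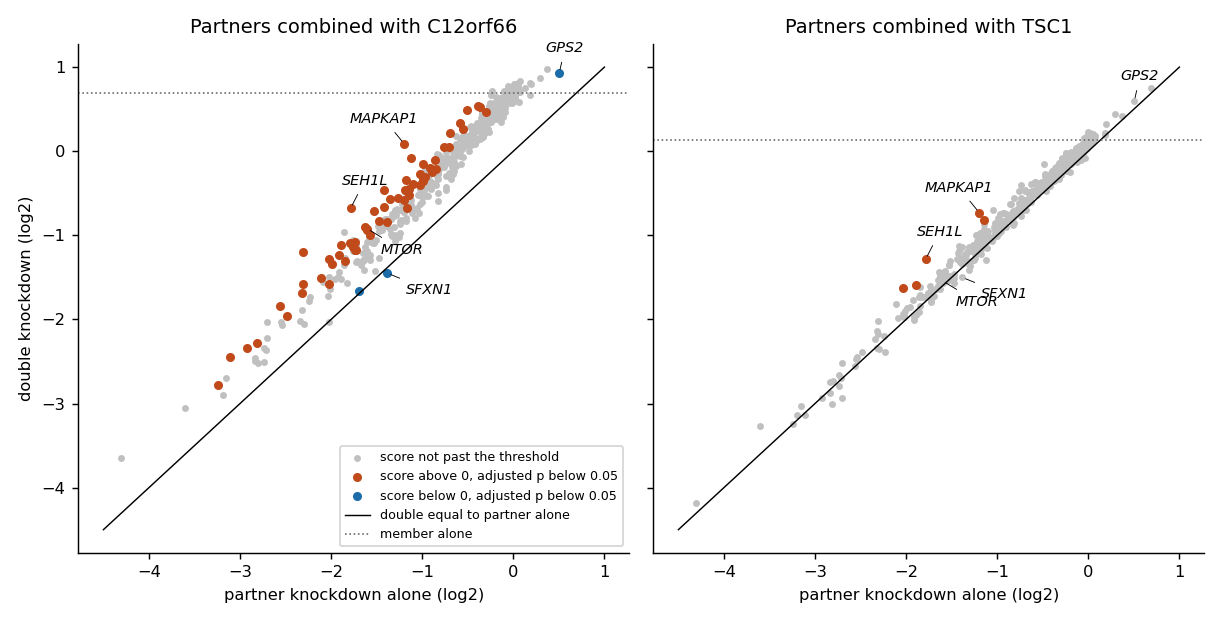
Double knockdown against partner knockdown alone for 542 partners in the vehicle arm (log2 change over T0, means of 4 cultures), with C12orf66 on the left and TSC1 on the right. The solid line is where the double equals the partner alone and the dotted line is C12orf66 or TSC1 alone. With C12orf66, 540 of 542 points lie above the solid line, and with TSC1 499 do, most of them close to it.

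The third comparison asks which doubles departed from what their singles predict. The interaction score is the log2 residual of a double from a curve fitted for each sgRNA over its partners, averaged over both directions, so that a score above 0 means more cells than predicted. With C12orf66 in the vehicle arm, 64 of 542 partners passed the threshold, 61 above 0 and 3 below (limma, adjusted over 147044 pairs). Over all gene pairs 2.36% were called, 1.08% above and 1.29% below. The C12orf66 scores had a median of 0.091, and its pairs with single non-targeting sgRNAs ran from -0.23 to 0.18. With the curve of C12orf66 alone as the prediction, an alternative chosen after seeing the data, the median was 0.0023 and 23 partners passed, 14 above and 9 below. Against the sum of the singles the split turned over, with 132 partners past the threshold, 14 above and 118 below, and a median of -0.055.

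With TSC1, 5 partners passed in the vehicle arm, all above 0, a share of 0.923% against 2.36% of all pairs. Its median score was 0.0043. Both sgRNAs of the gene gave scores of one sign for 63 of the 64 called partners of C12orf66 and for 5 of 5 of TSC1. These partners were called on the mean over both sgRNAs, which itself favours one sign. Over all 542 partners, the scores of the 2 sgRNAs correlated at a Pearson r of 0.61 for C12orf66 and 0.41 for TSC1.

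SEH1L and MAPKAP1 had the highest scores with either gene. With C12orf66, SEH1L scored 0.48, 1.13, 0.85 and 0.91, a mean of 0.84 ± 0.27 (SD, n = 4; limma, adjusted p = 0.0192). SEH1L alone stood at -1.79 and with C12orf66 repressed at -0.68. MAPKAP1 scored 0.75, 0.74, 1.00 and 0.80, a mean of 0.82 ± 0.12 (limma, adjusted p = 0.00634). MAPKAP1 alone stood at -1.20 and the double at 0.085, near the non-targeting level. Both scores were above 0 in every culture, and both also passed against a straight line, the sum of the singles and the curve of C12orf66 alone, with 0.42 and 0.59 against the sum.

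With TSC1 the scores were smaller. SEH1L with TSC1 scored 0.35, 0.60, 0.43 and 0.42, a mean of 0.45 ± 0.11 (limma, adjusted p = 0.0187). MAPKAP1 with TSC1 scored 0.28, 0.40, 0.36 and 0.44, a mean of 0.37 ± 0.070 (limma, adjusted p = 0.0203). These doubles stayed low, at -1.29 for SEH1L and -0.73 for MAPKAP1.

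Among other genes of the pathway, MTOR scored 0.40 ± 0.12 with C12orf66 (limma, adjusted p = 0.0268) and 0.0026 with TSC1. The MTOR score with C12orf66 was -0.010 against the sum of the singles and did not pass against a straight line. INPPL1 passed with C12orf66 at 0.23 ± 0.032 (limma, adjusted p = 0.0445), but not with the replicate block by screen (adjusted p = 0.0661), against a line or the sum (0.12 and 0.080), or with the curve of C12orf66 alone (0.12). That block, here and below for interaction scores, is a term for the screen and not for each culture. RPTOR stood at 0.27, LAMTOR3 at 0.21, PIK3CA at 0.16, RRAGD at 0.060 and LAMTOR5 at -0.0074 with C12orf66, none past the threshold. With TSC1, LAMTOR5 stood at 0.24 ± 0.094 (limma, adjusted p = 0.0641) and LAMTOR3 at 0.13, and RPTOR, PIK3CA, RRAGD and INPPL1 lay between -0.0093 and 0.071. Of the 5 core and recruiting genes, 1 passed with C12orf66 and 0 with TSC1 by limma, where 11.8% and 0.923% of all partners did.

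**Figure D3:**
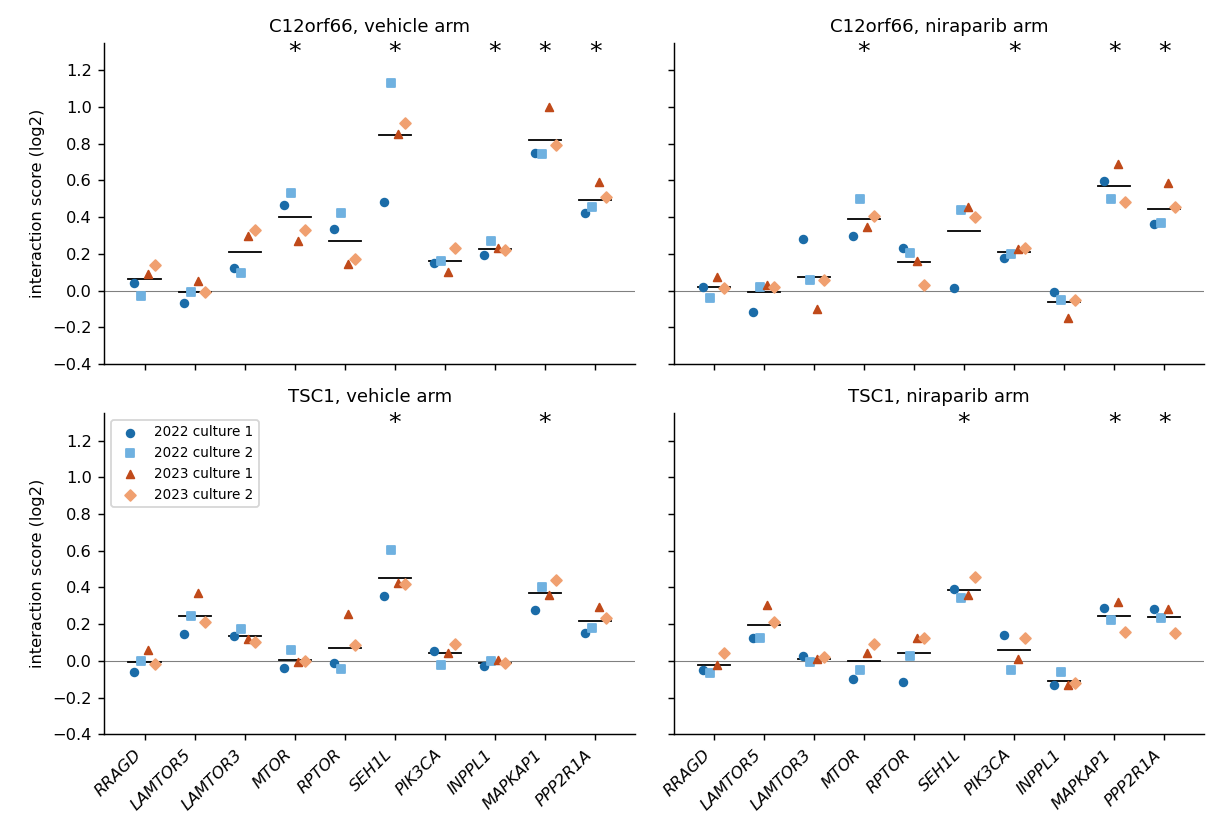
Interaction scores (log2) of C12orf66 (top) and TSC1 (bottom) with pathway partners and PPP2R1A, the scaffold of the phosphatase PP2A, in each of the 4 cultures, in the vehicle arm (left) and the niraparib arm (right), with black lines for the mean of 4 and stars where the adjusted p was below 0.05. SEH1L and MAPKAP1 stand highest with both genes in the vehicle arm, from 0.37 to 0.84 in the mean.

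Outside the pathway, TCF3, a transcription factor of early blood cells, scored 0.63 ± 0.17 with C12orf66 and IARS2, the mitochondrial isoleucyl-tRNA synthetase, 0.56 ± 0.14 (SD, n = 4; limma). SDAD1, a ribosome assembly factor, scored 0.56, the nucleoporin NUP54 0.54 and RAD9A, a subunit of the checkpoint clamp, 0.53. DCTN3 of dynactin scored 0.52, the tyrosine phosphatase PTPN1 0.51, ADPRM 0.50 and PPP2R1A 0.49. Against the sum of the singles IARS2 was 0.071, SDAD1 0.046, NUP54 0.042, RAD9A 0.085, ADPRM 0.13 and DCTN3 -0.031, none past the threshold, while TCF3 and PTPN1 passed at 0.35 and 0.22. With the curve of C12orf66 alone, SDAD1 and DCTN3 did not pass (0.25 and 0.18). Of all partners of C12orf66, 11.8% passed. By list, 5 of 22 genes of the replicative helicase, polymerases and clamp loader passed with C12orf66, all above 0, with a median of 0.20. None of 26 homologous recombination genes passed, with a median of 0.096 against 0.091 over all partners. Of 5 PP2A and PP4 genes 2 passed, of 6 ribosome biogenesis genes 1 and of 12 genes of the ATR and CHK1 checkpoint 3, all above 0.

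The 3 partners below 0 with C12orf66 were SFXN1, GPS2 and SHMT2. SFXN1, which carries serine into mitochondria, scored -0.32, -0.42, -0.60 and -0.51, a mean of -0.46 ± 0.12 (limma, adjusted p = 0.0198). SHMT2, the mitochondrial enzyme that takes one-carbon units from serine, scored -0.35 ± 0.090 (limma, adjusted p = 0.027). They were 2 of 9 measured genes of nucleotide and one-carbon synthesis, of which 7 did not pass, and the median of the 9 was 0.025. Of all 542 partners 3 were called below 0. Without any one of the 4 cultures, 0 partners passed below 0. The lowest adjusted p in those fits was 0.055 for SFXN1, 0.064 for GPS2 and 0.074 for SHMT2 (limma). The SFXN1 double stood at -1.45 against -1.38 for SFXN1 alone, and the SHMT2 double at -1.66 against -1.69. GPS2, a subunit of the NCoR corepressor complex that ranked second in growth alone, scored -0.42 ± 0.091 (limma, adjusted p = 0.0193), with its double still high at 0.93. With TSC1 they scored -0.19, -0.10 and -0.054 in the order SFXN1, SHMT2, GPS2, none past the threshold.

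The other called partners of TSC1 in the vehicle arm were CYB5B, a cytochrome of the outer mitochondrial membrane, at 0.34 ± 0.036, RAD9A at 0.25 ± 0.049 and the primase subunit PRIM2 at 0.24 ± 0.024 (limma, adjusted p = 0.0193, 0.0392 and 0.0372). With the replicate block by screen RAD9A and PRIM2 no longer passed (limma, adjusted p = 0.0527 and 0.0565), nor did they with the curve of TSC1 alone (0.0553 and 0.064). CYB5B stood at -0.28 ± 0.19 with C12orf66 (limma, adjusted p = 0.112), and TCF3 at -0.25 ± 0.14 with TSC1 (adjusted p = 0.0856). Differences between the C12orf66 and TSC1 scores were not tested.

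These calls rest on 4 cultures. A fit without one culture has less to go on for every pair of the library. The share of all pairs called in such fits is not given here, so a fall in count cannot be called particular to C12orf66 or TSC1. The number past the threshold with C12orf66 in the vehicle arm was 9 without 2022 culture 1, 4 without 2022 culture 2, 6 without 2023 culture 1 and 3 without 2023 culture 2, while 190 to 207 partners had an unadjusted p below 0.05. MAPKAP1, NUP54 and RAD9A passed in all 4 of these fits. SEH1L passed only without 2022 culture 1, and its score ran from 0.75 to 0.97. With TSC1, 0 partners passed by limma in each of these fits, with 38 to 42 at an unadjusted p below 0.05, and the score of SEH1L ran from 0.40 to 0.48.

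Under niraparib, 43 of 542 partners of C12orf66 passed, 31 above 0 and 12 below, or 7.93% against 5.14% of all pairs, 2.5% above and 2.63% below. The excess above 0 turned over against a straight line (19 above and 32 below), against the sum of the singles (32 above and 68 below) and with the curve of C12orf66 alone (14 above and 23 below). MAPKAP1 again scored highest, at 0.60, 0.50, 0.69 and 0.48, a mean of 0.57 ± 0.095 (SD, n = 4; limma, adjusted p = 0.00563). TCF3 scored 0.54, SARS, the cytosolic seryl-tRNA synthetase, 0.46, PPP2R1A 0.44 and MTOR 0.39 ± 0.088 (limma, adjusted p = 0.0136). SARS did not pass against a line or with the curve of C12orf66 alone (limma, adjusted p = 0.0524 and 0.0925). PIK3CA passed at 0.21 ± 0.024 (limma, adjusted p = 0.0446), but not with the replicate block by screen (adjusted p = 0.0644) or in any of the 4 fits without one culture. SEH1L stood at 0.015, 0.44, 0.46 and 0.40, a mean of 0.33 that did not pass (limma, adjusted p = 0.0741). Its 2022 culture 1 lay below the others, and without that culture SEH1L passed at 0.43.

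Of the 12 partners of C12orf66 below 0 under drug, CHTF18, of an alternative clamp loader, scored -0.39, -0.26, -0.68 and -0.55, a mean of -0.47 ± 0.18 (limma, adjusted p = 0.022). RIF1, which guides the repair of DNA ends and replication timing, scored -0.37, the ubiquitin ligase RAD18 -0.34, C19orf40 (FAAP24) of the Fanconi core -0.33, DNPH1, which clears a damaged nucleotide, -0.28, and the ubiquitin ligase TRAIP -0.26. The others were GPS2 at -0.39, the RNA-binding protein EWSR1 at -0.33, the protease MBTPS2 at -0.28, SFXN1 at -0.26, the exoribonuclease XRN2 at -0.24 and HMGXB3 at -0.21. With the replicate block by screen the number below 0 was 8, and RAD18, DNPH1 and EWSR1 did not pass (limma, adjusted p = 0.0702, 0.0505 and 0.0581). Without 2022 culture 2 only CHTF18 passed below 0, without 2023 culture 1 only GPS2, and without either other culture 0 did. RIF1, RAD18, C19orf40, DNPH1, TRAIP, EWSR1, MBTPS2 and SFXN1 passed in 0 of these 4 fits. ATR, the replication stress kinase, scored above 0 at 0.41 ± 0.23 (limma, adjusted p = 0.04996), but not past the threshold with the replicate block (adjusted p = 0.0736), against a line (0.0678) or with the curve of C12orf66 alone (0.127). By list, 1 of 15 Fanconi anemia genes passed, below 0, with a median of -0.19 against 0.035 over all partners, of which 7.93% passed. Of 26 homologous recombination genes 0 passed by limma, with a median of 0.059.

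With TSC1, 7 partners passed under niraparib, 1.29% of 542 against 5.14% of all pairs. SEH1L scored 0.39, 0.34, 0.36 and 0.46, a mean of 0.39 ± 0.051 (limma, adjusted p = 0.01), all cultures close together. MAPKAP1 scored 0.25 ± 0.073, PPP2R1A 0.24 ± 0.062, ZAR1L 0.22 and PREB, of the secretory pathway, 0.22. RIF1 scored -0.27 ± 0.075 and OPA1, of the inner mitochondrial membrane, -0.26 ± 0.060. With the replicate block by screen 3 passed, SEH1L, RIF1 and OPA1, while MAPKAP1, PPP2R1A, ZAR1L and PREB did not (limma, adjusted p = 0.0611, 0.059, 0.0615 and 0.0681). Without any one culture, 1 partner passed with TSC1, SEH1L each time, in place of 7. With C12orf66 the number was 4 without 2022 culture 1, 4 without 2022 culture 2, 8 without 2023 culture 1 and 3 without 2023 culture 2, in place of 43, and MAPKAP1 and PPP2R1A passed in all 4 of these fits.

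Both arms share the T0 libraries, so the test of a change with drug is the niraparib score minus the vehicle score of the same culture. For C12orf66, 5 partners passed, all below 0, or 0.923% against 0.469% of all pairs and 0.252% below 0. Against the sum of the singles the direction turned, with 53 past the threshold, 38 above and 15 below, and a median of 0.043 in place of -0.065. SEH1L changed by -0.47, -0.70, -0.40 and -0.52, a mean of -0.52 ± 0.13 (SD, n = 4; limma, adjusted p = 0.0416). EWSR1 changed by -0.47, CHTF18 by -0.41, MCTS1, a factor of translation reinitiation, by -0.39 and HUS1, of the checkpoint clamp, by -0.37. CAD, the enzyme that starts pyrimidine synthesis, had the lowest value at -0.54 ± 0.42 and did not pass (limma, adjusted p = 0.239). With a block for the screen 0 partners passed by limma (127 at an unadjusted p below 0.05), and without any one of the 4 cultures 0 passed (94 to 108 at an unadjusted p below 0.05).

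For TSC1, 0 partners passed for the change with drug by limma, and 22 had an unadjusted p below 0.05. Of those with one sign in all 4 cultures, HAUS1 was highest at 0.48 ± 0.35 and RAD9A lowest at -0.31 ± 0.14. SEH1L changed by -0.065 with TSC1. Between the screens, 0 partners of either gene differed in the vehicle arm by limma, with 31 of C12orf66 and 7 of TSC1 at an unadjusted p below 0.05. That test called 0 of all 147044 pairs, so it does not show that the screens agreed for these genes.

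The pair of C12orf66 and TSC1 shows whether repressing both added to either alone. Over its 8 constructs, the double stood over T0 at 0.61, 0.61, 1.01 and 0.79 in the vehicle arm, a mean of 0.76 ± 0.19 (SD, n = 4). C12orf66 alone stood at 0.69 ± 0.083 on this scale and TSC1 alone at 0.13 ± 0.038. The cultures of the double and of C12orf66 alone overlapped. The interaction score was -0.061, -0.15, 0.055 and -0.17, a mean of -0.082 ± 0.10 (limma, adjusted p = 0.469).

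Under niraparib the double was 0.0038, 0.033, 0.36 and 0.27, a mean of 0.17 ± 0.18, against 0.31 ± 0.062 for C12orf66 alone and 0.027 ± 0.024 for TSC1 alone. The score was -0.25, -0.23, -0.029 and -0.16, a mean of -0.17 ± 0.10, below 0 in all 4 cultures and not past the threshold (limma, adjusted p = 0.135). The change with drug was -0.086 ± 0.084 (limma, adjusted p = 0.613). The score under drug was 0.036 for the first sgRNAs of both genes together and -0.32 for the second sgRNAs of both (limma, adjusted p = 0.873 and 0.0239). Their difference was not tested. With C12orf66 first, the construct of the first sgRNAs had 59 to 102 reads at T0 and stood at 0.53 ± 0.36 under niraparib. The reverse order stood at 0.22 ± 0.22.

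Constructs with both sgRNAs of one gene stood at 0.75 ± 0.15 for C12orf66 and 0.097 ± 0.095 for TSC1 in the vehicle arm, and at 0.35 ± 0.030 and -0.031 ± 0.043 under niraparib (SD, n = 4). With 1 sgRNA in both positions, the second C12orf66 sgRNA stood at 0.81 ± 0.15 in the vehicle arm and the TSC1 sgRNAs at 0.31 ± 0.049 and 0.28 ± 0.054. The first C12orf66 sgRNA in both positions had a mean T0 count under 30 and was not scored.

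**Figure D4:**
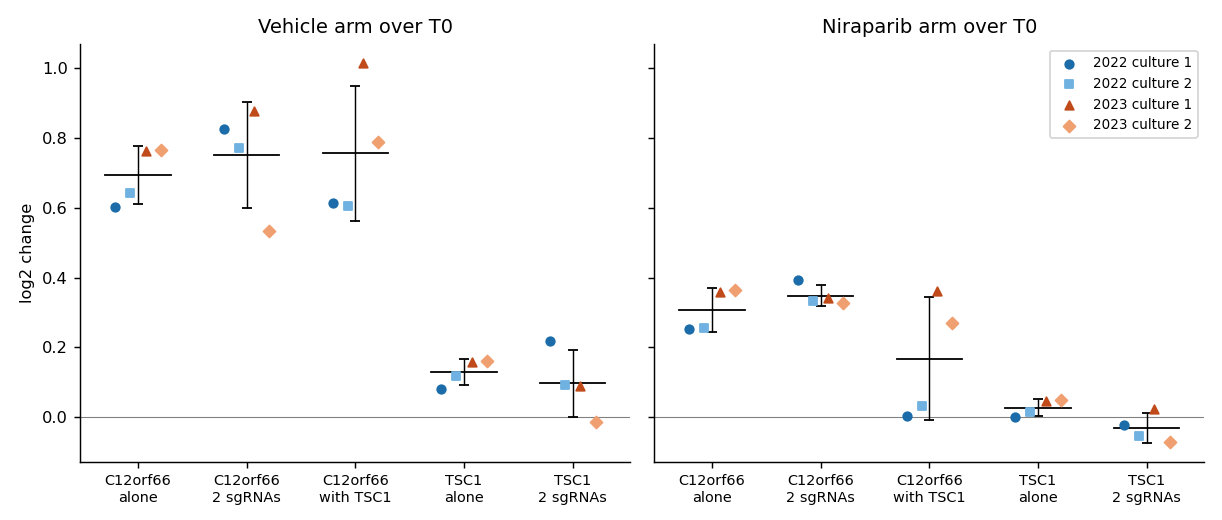
Log2 change over T0 in the vehicle arm (left) and the niraparib arm (right) for C12orf66 alone, for both its sgRNAs together, for C12orf66 with TSC1, and for TSC1 alone and with both its sgRNAs, with points for the 4 cultures, lines for means and bars for 1 SD. C12orf66 with TSC1 lies at 0.76 and 0.17, and C12orf66 alone at 0.69 and 0.31.

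Across the whole profile of vehicle scores, C12orf66 was the gene most like TSC1, with a Pearson r of 0.31 over 541 shared partners. This is a description, since both profiles share libraries, T0 counts and partner curves. LAMTOR5 followed at 0.27, then LZTR1, an adaptor that limits RAS, at 0.25, SNAI1 at 0.24 and EP300 at 0.17. Least like TSC1 were MAPKAP1 at -0.31, RPTOR at -0.27 (540 partners) and the glycolytic enzyme PGK1 at -0.26. Among those most like C12orf66 were MYEOV2 at 0.48, RBM8A at 0.45 (539 partners), MTF2, a Polycomb protein, at 0.44 and HMGXB3 at 0.39, with TSC1 at rank 26. The least like were HDAC1 at -0.47, PPP2R2A, a regulatory subunit of PP2A, at -0.40 and ZNF574 at -0.39.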

How the data were processed

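Read counts per construct, as deposited by the authors, were raw counts from PCR of genomic DNA. The submitters' processing notes name Bowtie2 2.3.4.1 without a role, and the counting rules and genome build are not given in the sources used here. The authors' deposited phenotype tables hold log2 ratios to non-targeting constructs divided by a constant per score (growth, total or response) and replicate. This was found by setting them against the counts, so they are not an independent check. Samples were grouped by the labels. The genes and lists were chosen with earlier results of these data known.

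Single values were tested with edgeR 4.0.16 (quasi-likelihood) in R 4.3.3 on counts summed over 220 constructs per gene. Library size was the total of 3025 constructs with 2 non-targeting sgRNAs, and each culture was a block, since its 3 libraries come from one culture per the labels' protocols. Replicate 1 minus 2 differences correlated across genes at 0.49 in 2022 and 0.21 in 2023 between the vehicle and niraparib arms, and at -0.020 to 0.086 between T0 and either arm, so the values do not show the pairing of T0. Adjusted p-values are Benjamini-Hochberg over 543 genes and 55 non-targeting sgRNAs, with a threshold of 0.05.

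For interactions, log2 values with 1 added to each count were set to the median of constructs with 2 non-targeting sgRNAs. Constructs under a mean of 30 reads at T0 were left out, which kept 8875 of the 9112. A degree-2 curve per sgRNA gave the prediction, and the residuals of 4 cultures were tested with limma 3.58.1, adjusted over 147044 pairs. Named partners were, per gene and arm, up to 10 each way past the threshold with the same sign in all 4 cultures (where fewer than 3 passed, the 3 largest of one sign, as values only), plus every measured gene of the mTORC1 core, brake, GATOR2 and PI3K lists, 2 to 4 genes of each other list, and the 5 highest and 3 lowest profile correlations. Results for some genes that this rule names are not reported here. A partner named beyond these was chosen after its values were seen. On simulated data edgeR recovered 100% of 100 genes changed by 0.25 in growth and called 5 of 398 unchanged rows. Its counts were simulated with one common spread and no difference between screens, and no smaller change was tried. The 100% thus does not give the recovery of changes as small as those of TSC1. In the real data, 3 of 55 non-targeting sgRNAs were called in growth. On simulated pairs limma recovered 87% of 200 changed by 0.5 in the vehicle arm. The pairs were simulated with Poisson counts and no other spread between cultures, so the 87% does not give the recovery in these data. Alternatives covered scaling (TMM, DESeq2 1.42.0), pseudocount, prediction, T0 filter, position, sgRNA, block and each culture left out.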

Additional observations from a re-analysis of the deposited data

Results flagged for a closer look

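The growth of C12orf66 differed between the screens by 0.19 on the log2 scale (2023 minus 2022), that of TSC1 by 0.065, and the total change of C12orf66 under niraparib over T0 by 0.17, each by edgeR's test of the difference. The screens differ in year and harvest day and, for the last value, in dose and days in drug. These cannot be told apart.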

How the results depend on the processing

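Single values rest on the non-targeting scale. Growth turned above 0 under TMM and DESeq2 scaling for RRAGD (0.39 and 0.32), PIK3CA (0.27 and 0.21) and INPPL1 (0.16 and 0.097), and the DESeq2 split of growth calls was 236 higher and 275 lower. For response, 299 genes were called higher and 156 lower under DESeq2 scaling, and the scale of the constants turned MTOR (-0.22), RPTOR (-0.22), LAMTOR3 (-0.084), PIK3CA (-0.0030) and MAPKAP1 (-0.0094). The total change of TSC1 no longer passed in 2022 alone (0.0038), in 2023 alone (0.045), in first positions (0.018), with the second sgRNA (0.014), as a mean over constructs with 10 added (0.035), or without one culture (0.020 to 0.028). Without the block for each culture, edgeR called 465, 438 and 480 genes in growth, response and total, in place of 463, 434 and 476. C12orf66 growth was then 0.75, and no call of C12orf66 or TSC1 changed.

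Counts of interaction partners moved more. The share of all pairs called in each alternative is not given here, so these moves are not set against the whole library. For C12orf66 in the vehicle arm, 64 became 139 with 10 added to each count, 32 against a straight line, 132 against the sum of singles, 42 with C12orf66 first, 38 with its first sgRNA, 23 with its curve alone (added after seeing the data) and 3 to 9 without one culture. Under niraparib, 43 became 81 with 10 added, 100 against the sum, 28 with the first sgRNA and 3 to 8 without one culture. With the replicate block by screen these counts were 53 and 34. For these interaction counts the replicate block is the term for the screen. For the change with drug, 5 became 0 with the replicate block, 18 with 10 added, 2 against a line, 53 against the sum, 1 with medians, 3 with C12orf66 second, 1 and 9 with the first and second sgRNA, 1 with its curve alone and 0 without one culture. For TSC1 in the vehicle arm, 5 became 3 with the replicate block, 15 with 10 added, 36 against the sum, 2 and 9 with the first and second sgRNA, 3 with its curve alone and 0 without one culture. Under niraparib, 7 became 3 with the replicate block, 12 with 10 added, 23 against the sum, 4 with medians, 17 with the second sgRNA and 1 without one culture. For its change with drug, 0 became 1 with 10 added and 1 against the sum.

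Against the sum of singles, C12orf66 scores in the vehicle arm reversed for DCTN3 (-0.031), LAMTOR3 (-0.082), MTOR (-0.010) and RPTOR (-0.14). With C12orf66 first, XRCC6 under niraparib was -0.12 in place of 0.39 and the change of ATR -0.0030 (-0.090 with the second sgRNA) in place of 0.20. With TSC1 first, PRIM2 was -0.14 in the vehicle arm. The pair of C12orf66 and TSC1 scored 0.015, 0.036 and 0.021 with the first sgRNAs of both (vehicle, niraparib, change). Under niraparib it passed against the sum (-0.17), with C12orf66 second (-0.21) and with the second sgRNAs (-0.32). The cause was not tested for any of these. Of 1216 alternative scores of named partners, 849 kept direction and call, 323 lost the call, 33 gained it and 11 reversed. The 849 include scores that were not called in the main fit and stayed so. Such scores cannot lose a call, so among called scores the share lost was higher than 323 of 1216. Of 395 alternative single values, 367 kept both, 17 lost the call and 11 reversed. Alternatives for TSC2 were not run, as it was not among the genes used here. Depth limits the first C12orf66 sgRNA most.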
